A study of Homo sapiens with 15 samples.

Results

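The sterol efflux and liver X receptor (LXR) pathway genes described here are the efflux transporters ABCA1 and ABCG1, the LXR receptors NR1H2 and NR1H3, the ubiquitin ligase MYLIP, the lipoprotein receptors VLDLR and LRP8, and the HDL receptor SCARB1. They were picked by symbol, with earlier results of these data known, and their 8 rows were taken from a table of 28518 gene symbols. RNA was sequenced from HaCaT, a human keratinocyte line that became immortal in culture, after CRISPR editing of CARD14, which encodes a scaffold protein that recruits BCL10 and the protease MALT1. The genotypes were CARD14 WT/WT (WT), CARD14 R820W/R820W (R820W) and CARD14 KO (KO), and the series sets out to find the pathways that differ between them. From the day after plating, WT and R820W cells received DMSO vehicle or 10 µM mepazine, an inhibitor of MALT1, for 24 h, and KO cells received vehicle. Each of the 5 groups held 3 libraries, lettered a, b and c. All cells grew in medium with serum, a source of lipoprotein cholesterol, and the labels do not give the number of edited clones behind each genotype.

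LXR-alpha (NR1H3) and LXR-beta (NR1H2) are nuclear receptors that bind oxidised sterols, pair with a retinoid X receptor and switch on genes that lower the sterol content of a cell. Their targets include ABCA1 and ABCG1, which pass cholesterol to apolipoprotein acceptors and HDL, and MYLIP, also called IDOL, which marks lipoprotein receptors, VLDLR and LRP8 among them, for degradation. SREBP2 works in the other direction, and raises sterol synthesis and uptake when sterol in the endoplasmic reticulum is low. In the epidermis cholesterol is a main lipid of the barrier, and LXR activation is known to favour keratinocyte differentiation.

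The libraries held 20630099 to 26974363 counts, and 3 counts, taken as the floor, corresponded to 0.108 to 0.143 CPM (counts scaled to a common library size, with TMM factors). Intervals cover counting error where they are given for counts. CARD14 did not check the genotypes. It lay at 1.52 ± 0.340 CPM in WT with vehicle and at 1.78 ± 0.241 in the libraries labelled KO (SD, n = 3), with a log2 difference of 0.21 and an adjusted p of 0.886, and a count over the whole gene does not show whether the transcript still encodes the protein. The keratinocyte identity of the cells was plain: 8 of 8 keratinocyte markers were at or above 1 CPM in every group. They summed to 5895 to 6175 CPM with vehicle and 5020 to 5616 with mepazine in WT cells. In R820W cells the sums were 4623 to 4936 with vehicle and 4643 to 5027 with mepazine, and in KO 5671 to 6465. By the test described below, 5 of the 8 were lower and 1 higher in R820W than in WT with vehicle (8.61% and 10.6% of all genes tested). Leukocyte and macrophage markers summed to 4.71 to 7.12 CPM and melanocyte markers to 0.809 to 2.60 CPM. The sums of fibroblast and endothelial markers also moved with the groups. Fibroblast markers summed to 2.47 to 2.71 CPM with vehicle and 3.52 to 5.20 with mepazine in WT cells, to 5.33 to 11.2 with vehicle and 23.4 to 33.2 with mepazine in R820W cells, and to 2.44 to 2.94 in KO. Endothelial markers summed to 4.42 to 6.95, 10.1 to 13.3, 7.70 to 10.5, 22.2 to 35.9 and 4.78 to 5.50 CPM in the same order. In R820W with mepazine LUM, DCN and CDH5 made up most of these sums, at 11.2, 10.5 and 25.8 CPM on average. COL1A1 was at 6.0 ± 1.28 CPM there, against 2.78 ± 0.735 in R820W and 1.70 ± 0.239 in WT with vehicle, while COL1A2 and COL3A1 were at 1 count or 0 in each of the R820W mepazine libraries and PDGFRB at 0. Of the endothelial markers, KDR and TEK were likewise at 1 count or 0 in each of these libraries. PECAM1 was at 0.317 ± 0.173 CPM and VWF at 1.20 ± 0.111 in this group.

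The 8 genes fell into 3 ranges of abundance. Compared per kilobase of exon in WT cells with vehicle, SCARB1 stood at 12.2 ± 0.410 CPM per kb, LRP8 at 11.8 ± 0.150 and NR1H2 at 11.1 ± 0.443 (SD, n = 3). The libraries of SCARB1 and LRP8 overlapped, those of NR1H2 lay just below both, and the order changed between groups, with NR1H2 above SCARB1 and LRP8 in every library of R820W with mepazine. MYLIP followed at 2.83 ± 0.0375, NR1H3 at 0.685 ± 0.0956 and ABCG1 at 0.257 ± 0.0250 CPM per kb, each apart from its neighbours in this order in all 15 libraries. VLDLR and ABCA1 were lowest at 0.0114 ± 0.00370 and 0.00905 ± 0.00111 CPM per kb, and their libraries overlapped. The order of the 8 group means was the same when the length of the longest coding transcript was used.

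**Figure D1:**
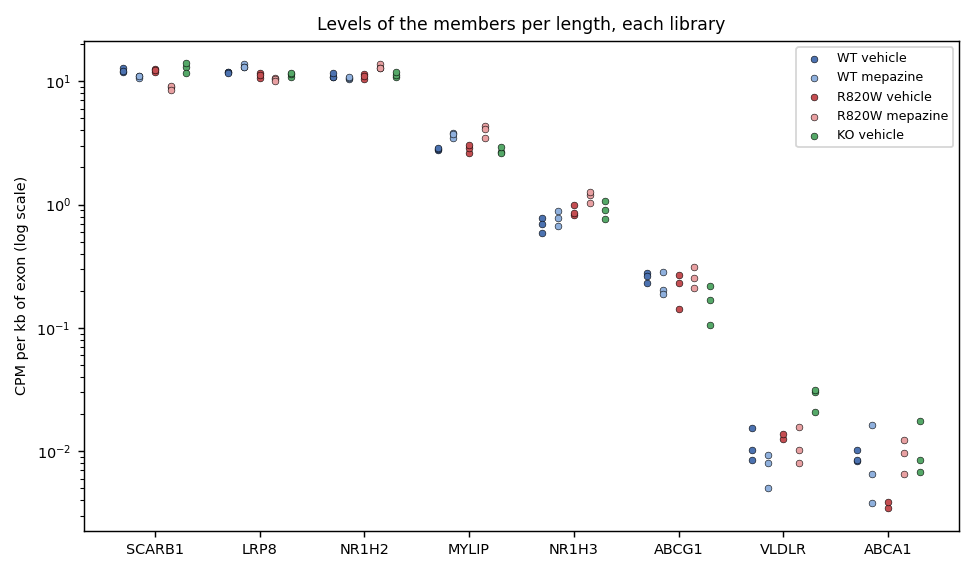
Level of each of the 8 genes in each library, as CPM per kilobase of exon on a log scale (y axis), with genes on the x axis and groups by colour; 2 values of 0 (ABCA1 in R820W vehicle b and VLDLR in R820W vehicle c) cannot be drawn. SCARB1, LRP8 and NR1H2 lie together near the top, and VLDLR and ABCA1 lie lowest.

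Tests were run on the 14971 genes with enough counts, which took in 6 of the 8 genes; ABCA1 and VLDLR were too low. A gene is said to have risen or fallen where edgeR's quasi-likelihood test gave an adjusted p (Benjamini-Hochberg, over all tested genes) under 0.05, and log2 fold changes are given ± SE. The RNA came from whole cultures, so that less RNA per cell and fewer cells with a transcript cannot be told apart. Genotype comparisons with vehicle called none of the 6. In R820W against WT with vehicle 0 of 6 passed the test, where 19.2% of all genes tested did (10.6% higher and 8.61% lower), and 1 of 6, NR1H3, had an unadjusted p under 0.05 (4525 of all genes did). In KO against WT 0 of 6 passed, where 0.374% of all genes did (0.287% higher and 0.0868% lower), and 2 of 6, ABCG1 and NR1H3, had an unadjusted p under 0.05 (1141 of all genes). In KO against R820W with vehicle 0 of 6 passed, where 26.5% of all genes did (13.3% higher and 13.2% lower), and 0 of 6 had an unadjusted p under 0.05 (5584 of all genes). DESeq2 and limma-voom also called 0 of 6 in each of these 3 comparisons.

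Mepazine moved several of the genes in both genotypes. In WT cells 2 of 6, MYLIP and LRP8, rose (12.4% of all genes tested did) and SCARB1 fell (11.6% of all genes did). In R820W cells 3 of 6 rose, MYLIP, NR1H2 and NR1H3 (22.1% of all genes did), and SCARB1 fell (24.8% of all genes did), so that 4 of 6 changed where 46.8% of all genes changed. The mepazine responses of the 2 genotypes differed for 3 of 6, NR1H2, LRP8 and SCARB1, where 3.85% of all genes tested differed (0.788% higher in R820W, as NR1H2, and 3.07% lower, as LRP8 and SCARB1). That count of 3 went to 0 without WT mepazine a, R820W vehicle b or R820W mepazine c, and to 1 without R820W mepazine a, WT mepazine b, WT vehicle c or R820W vehicle c. Between R820W and WT cells that had both received mepazine, NR1H2 and NR1H3 were higher in R820W and LRP8 and SCARB1 lower, 4 of 6 where 44.9% of all genes differed (19.4% higher and 25.4% lower). These comparisons share groups and are not independent of each other. Because the genes were chosen with earlier results of these data known, their counts beside the shares of all genes are a description and not independent support. The median log2 fold change over all genes tested was between -0.0258 and 0.0219 in the 7 comparisons.

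**Figure D2:**
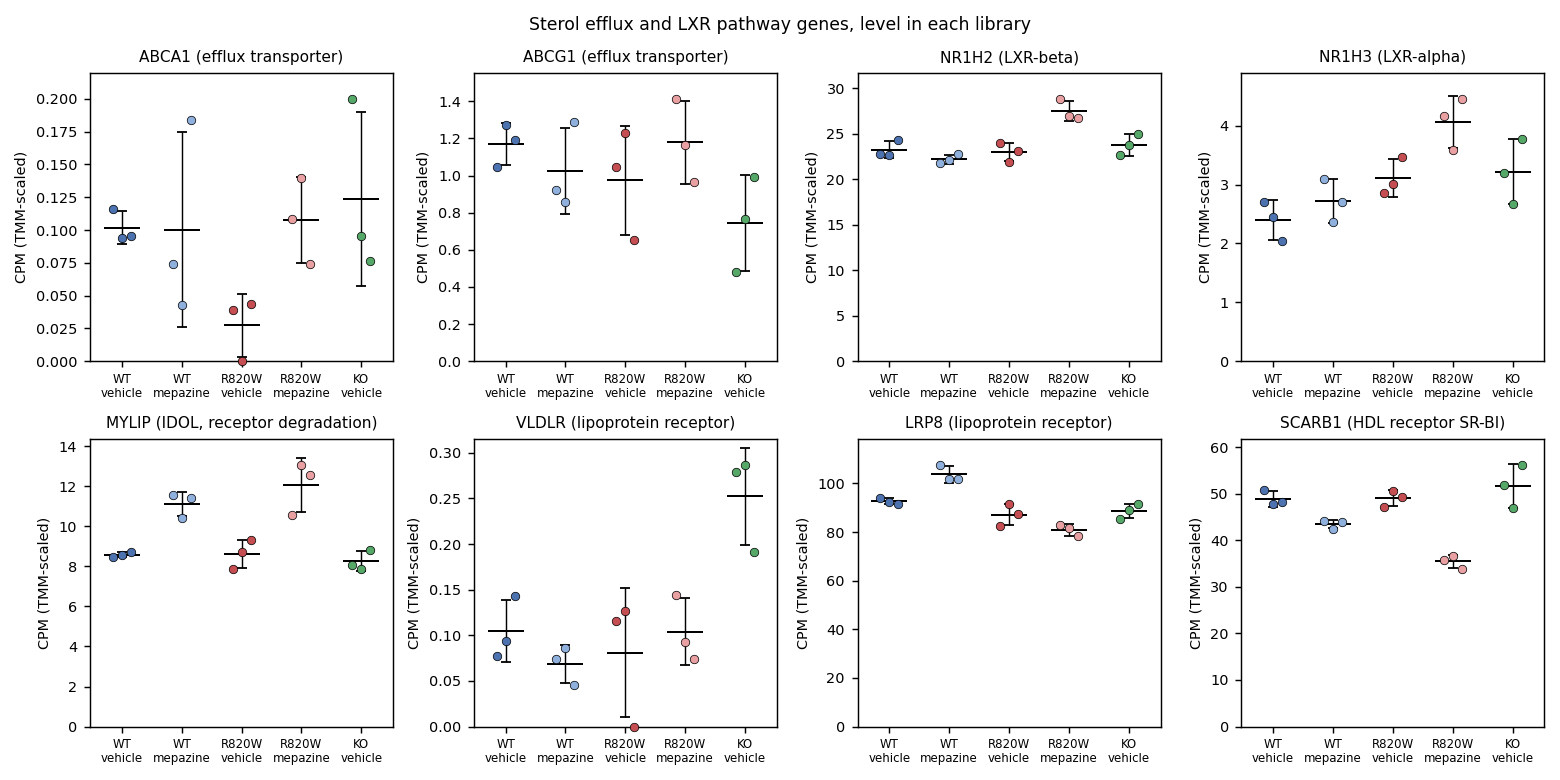
CPM in each library (points) with the mean and SD of each group of 3 (lines and bars), 1 panel for each of the 8 genes, each y axis starting at 0. MYLIP is high in both mepazine groups, NR1H2 is high and SCARB1 low in R820W with mepazine, and LRP8 is high in WT with mepazine.

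NR1H2, which encodes the LXR found in most tissues, was the main LXR transcript. WT cells had 22.8, 22.6 and 24.3 CPM with vehicle (libraries a, b and c, an order kept throughout) and 21.8, 22.1 and 22.8 with mepazine. R820W cells had 24.0, 21.9 and 23.1 CPM with vehicle and 28.8, 26.9 and 26.8 with mepazine, and KO cells 22.6, 23.7 and 25.0. The 3 libraries of R820W with mepazine were above the other 12, which overlapped. NR1H2 rose by 0.26 ± 0.0594 on the log2 scale with mepazine in R820W cells (1.20-fold, edgeR adjusted p = 0.000769), and in WT cells the log2 fold change was -0.07 ± 0.0614 (adjusted p = 0.479). The difference of these responses, R820W minus WT, was 0.33 ± 0.0854 (adjusted p = 0.0314). That difference lost its call in 8 of 12 fits that each left out 1 library, in which it lay between 0.289 and 0.359 with adjusted p up to 0.12; these were the fits without WT vehicle a or c, WT mepazine a or b, R820W vehicle b or c, or R820W mepazine a or c. With mepazine NR1H2 was higher in R820W than in WT by 0.31 ± 0.0597 (adjusted p = 0.00012). With vehicle it differed between R820W and WT by -0.01, with a 95% interval from -0.14 to 0.111.

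NR1H3, which encodes the LXR that is abundant in liver, fat and macrophages, was lower. It lay at 2.71, 2.45 and 2.05 CPM in WT with vehicle and at 3.10, 2.36 and 2.71 in WT with mepazine. In R820W cells it lay at 2.86, 3.005 and 3.48 CPM with vehicle and at 4.16, 3.58 and 4.45 with mepazine, and in KO at 3.19, 2.68 and 3.78. The 3 libraries of R820W with mepazine were above those of R820W with vehicle and above every WT library. NR1H3 rose with mepazine in R820W cells by 0.39 ± 0.154 (1.31-fold, edgeR adjusted p = 0.0388), and stood higher in R820W than in WT under mepazine by 0.58 ± 0.157 (adjusted p = 0.00375). The rise in R820W cells lost its call without R820W vehicle a or b, and without R820W mepazine a or c, with values from 0.319 to 0.473 and adjusted p up to 0.148 over the 6 fits that left out 1 library. In WT cells the response was 0.18 ± 0.169 (adjusted p = 0.486), and the difference of the responses did not pass the test (0.21 ± 0.229, adjusted p = 0.665).

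The vehicle values of NR1H3 leaned towards the edited genotypes without passing the test. R820W against WT gave 0.36 ± 0.166, with a 95% interval from 0.022 to 0.706 and an adjusted p of 0.136, and the libraries of the 2 groups did not overlap. KO against WT gave 0.42 ± 0.166, with an interval from 0.082 to 0.763 and an adjusted p of 0.513, and KO b lay below WT a. Per kilobase NR1H2 exceeded NR1H3 by 10.1 to 19.9 times in the 15 libraries. The ratio was 16.5 ± 3.04 and 13.8 ± 1.96 in WT cells without and with mepazine, 12.5 ± 1.47 and 11.4 ± 1.26 in R820W cells likewise, and 12.6 ± 1.98 in KO (SD, n = 3).

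The transcripts of both efflux transporters were scarce. ABCA1, the LXR target that loads cholesterol onto lipid-poor apolipoprotein A-I, had 33 counts in all 15 libraries together. WT libraries had 3, 2 and 2 counts with vehicle and 2, 1 and 4 with mepazine, R820W libraries 1, 0 and 1 with vehicle and 3, 3 and 2 with mepazine, and KO libraries 5, 2 and 2. In CPM the group means ran from 0.0274 ± 0.0238 in R820W with vehicle to 0.124 ± 0.0662 in KO. Most of these values were at or under the floor of 3 counts, and differences between the groups were not detectable at this depth. The sum of 2 counts in R820W with vehicle gave a Poisson 95% interval of 0.00334 to 0.0997 CPM, and the 7 counts in WT with vehicle one of 0.0413 to 0.212 CPM. A fit with no filter on low counts called ABCA1 in none of the 7 comparisons, and its smallest adjusted p there was 0.215.

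ABCG1, which moves cholesterol to HDL and is also an LXR target, was measured at 12 to 39 counts per library. It lay at 1.05, 1.27 and 1.19 CPM in WT with vehicle, 0.922, 0.859 and 1.29 in WT with mepazine and 1.04, 1.23 and 0.652 in R820W with vehicle. With mepazine R820W libraries lay at 1.41, 1.16 and 0.964 CPM, and KO libraries at 0.479, 0.765 and 0.993. The 3 KO libraries were below those of WT with vehicle, KO c only just, and the other groups overlapped WT. ABCG1 did not pass the test in any comparison. In KO against WT the log2 fold change was -0.64 ± 0.293 with a 95% interval from -1.24 to -0.034 (unadjusted p = 0.0392, edgeR adjusted p = 0.623). Its mepazine response was -0.19 ± 0.28 in WT, with an interval from -0.77 to 0.381, and 0.27 ± 0.276 in R820W, with an interval from -0.297 to 0.839, so that these counts do not separate no change from a change within those bounds.

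MYLIP rose with mepazine in both genotypes. Its level was 8.48, 8.57 and 8.71 CPM in WT with vehicle and 11.6, 10.4 and 11.4 in WT with mepazine. In R820W cells it was 7.89, 8.72 and 9.30 CPM with vehicle and 10.6, 13.1 and 12.6 with mepazine, and in KO 8.06, 7.89 and 8.83. The 6 mepazine libraries were above the 9 vehicle libraries, and the 3 vehicle groups overlapped. The rise was 0.38 ± 0.093 in WT (1.30-fold, edgeR adjusted p = 0.00392) and 0.48 ± 0.091 in R820W (1.40-fold, adjusted p = 9.62e-05). The difference of these responses was 0.10 ± 0.13, with a 95% interval from -0.163 to 0.372 (adjusted p = 0.716). Between R820W and WT with vehicle MYLIP differed by 0.01, with an interval from -0.19 to 0.203.

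Of LRP8 and VLDLR, the receptors among the 8 genes that MYLIP acts on, only LRP8 had enough counts to test. LRP8, also called ApoER2 and a receptor for apolipoprotein E and reelin, was the most abundant of the 8 by CPM. It lay at 93.9, 92.5 and 91.6 CPM in WT with vehicle and at 107.7, 101.8 and 101.7 in WT with mepazine. In R820W cells it lay at 82.6, 91.4 and 87.6 CPM with vehicle and at 83.1, 81.6 and 78.2 with mepazine, and in KO at 85.5, 88.9 and 91.5. The WT mepazine libraries were above the other 12, and the R820W mepazine libraries overlapped those of R820W with vehicle. LRP8 rose with mepazine in WT cells by 0.16 ± 0.0443 (1.12-fold, edgeR adjusted p = 0.00807). In R820W cells the value was -0.11 ± 0.0448 and missed the threshold (adjusted p = 0.052). The difference of the responses, -0.27 ± 0.063, passed it (adjusted p = 0.0169), and under mepazine the value for R820W against WT was -0.36 ± 0.0444 (adjusted p = 2.96e-07). The rise in WT lost its call without WT mepazine a (values over the 6 such fits from 0.12 to 0.176, adjusted p up to 0.0994). The value in R820W gained a call without R820W vehicle a or R820W mepazine a, with a range from -0.158 to -0.074, and also with DESeq2 size factors in edgeR, with no filter on low counts and with the replicate block, with a range from -0.122 to -0.04 over the alternatives that left out no library of these 2 groups. The difference of the responses lost its call without WT mepazine a, R820W vehicle b or R820W mepazine c, with a range from -0.306 to -0.237 and adjusted p up to 0.0764.

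VLDLR, the very low density lipoprotein receptor, had 44 counts in all libraries. WT libraries had 2, 2 and 3 counts with vehicle and 2, 2 and 1 with mepazine, R820W libraries 3, 3 and 0 with vehicle and 4, 2 and 2 with mepazine, and KO libraries 7, 6 and 5. Each KO library had more counts than any of the other 12, which had at most 4. In CPM the KO mean was 0.252 ± 0.0533, against 0.105 ± 0.0339 in WT with vehicle (SD, n = 3). The Poisson 95% intervals of the summed counts, 0.148 to 0.394 CPM for KO and 0.0413 to 0.212 for WT with vehicle, overlapped. In a fit with no filter on low counts VLDLR did not pass the test in KO against WT (unadjusted p = 0.0922, edgeR adjusted p = 0.868) or in KO against R820W (unadjusted p = 0.0407, adjusted p = 0.165).

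SCARB1, which takes cholesteryl ester from HDL and lets free cholesterol pass both ways, fell with mepazine. It lay at 50.7, 47.7 and 48.2 CPM in WT with vehicle and at 44.1, 42.5 and 44.0 in WT with mepazine. In R820W cells it lay at 47.2, 50.7 and 49.3 CPM with vehicle and at 35.9, 36.6 and 33.9 with mepazine, and in KO at 51.9, 46.8 and 56.2. The R820W mepazine libraries were below the other 12, the WT mepazine libraries were below the 9 vehicle libraries, and the vehicle groups overlapped. The log2 fold change with mepazine was -0.47 ± 0.0581 in R820W (0.722-fold, edgeR adjusted p = 2.63e-07) and -0.17 ± 0.0576 in WT (0.890-fold, adjusted p = 0.0331). The difference of the responses was -0.30 ± 0.0818 (adjusted p = 0.0373), and under mepazine the value for R820W against WT was -0.30 ± 0.0586 (adjusted p = 0.000166). The fall in WT lost its call without WT vehicle a or c and without WT mepazine b or c, with a range from -0.193 to -0.14 and adjusted p up to 0.152, and also when library totals replaced TMM scaling (-0.126, adjusted p = 0.125). The difference of the responses lost its call in 9 of 12 fits that left out 1 library, with a range from -0.331 to -0.269 and adjusted p up to 0.122; it kept it without WT vehicle a, R820W vehicle a or R820W mepazine b. It also lost its call with limma-voom and with library totals in place of TMM scaling (-0.276 and adjusted p = 0.0751 with the latter). The sums of fibroblast and endothelial markers given above were highest in R820W with mepazine, where NR1H2 was highest and SCARB1 lowest of all groups in every library, and NR1H3 was above the WT and R820W vehicle libraries; their part in these results was not tested.

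**Figure D3:**
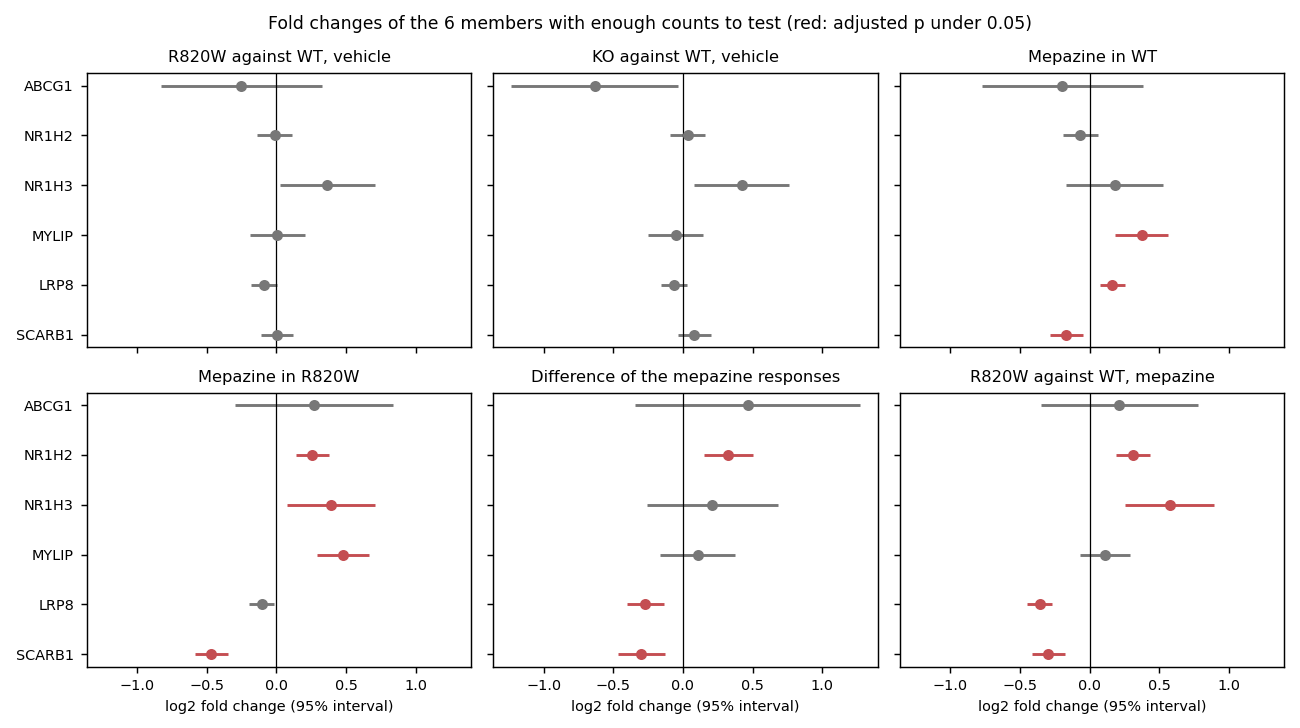
Log2 fold changes (points, x axis) with 95% intervals (lines) of the 6 genes tested, 1 panel for each of 6 comparisons; red marks an adjusted p under 0.05. No gene is red in the 2 vehicle panels, and NR1H2, LRP8 and SCARB1 are red in the difference of the mepazine responses.

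The 250 bases upstream of the RefSeq start (GRCh38.p14) were read for the 6 of the 8 genes that matched, which left ABCG1 and SCARB1 without one. They were searched on both strands for the MYC-type E-box CACGTG, since the series concerns MYC, for the SREBP element TCACNCCAC, and for a DR4 element, the arrangement LXR binds, written as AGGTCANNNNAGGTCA with up to 2 mismatches in its 12 fixed bases. The sequences of ABCA1, which was near the floor, and of MYLIP, NR1H2 and LRP8, which rose with mepazine in 1 or both genotypes, are shown 5′ to 3′ on the strand of the gene. Capitals in ABCA1 mark the E-box and then the DR4 match, and the other 3 hold none of these motifs. They lie at chr9:104928156-104928405 (minus strand) for ABCA1, chr6:16128836-16129085 (plus strand) for MYLIP, chr19:50376207-50376456 (plus strand) for NR1H2 and chr1:53328071-53328320 (minus strand) for LRP8.
ABCA1: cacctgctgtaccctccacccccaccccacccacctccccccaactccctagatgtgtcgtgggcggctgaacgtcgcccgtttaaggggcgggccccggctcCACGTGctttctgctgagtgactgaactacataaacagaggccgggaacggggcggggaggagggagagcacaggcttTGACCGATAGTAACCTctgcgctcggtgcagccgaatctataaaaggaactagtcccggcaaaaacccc
MYLIP: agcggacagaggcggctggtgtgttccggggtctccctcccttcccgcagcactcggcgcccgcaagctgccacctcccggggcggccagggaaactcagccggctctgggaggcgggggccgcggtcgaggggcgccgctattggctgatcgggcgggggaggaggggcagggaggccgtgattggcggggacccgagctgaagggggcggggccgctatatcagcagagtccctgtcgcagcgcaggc
NR1H2: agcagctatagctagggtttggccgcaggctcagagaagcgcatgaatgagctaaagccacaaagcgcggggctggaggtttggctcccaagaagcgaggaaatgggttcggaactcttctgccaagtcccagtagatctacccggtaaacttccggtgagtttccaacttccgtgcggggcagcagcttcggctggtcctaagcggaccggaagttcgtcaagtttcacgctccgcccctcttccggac
LRP8: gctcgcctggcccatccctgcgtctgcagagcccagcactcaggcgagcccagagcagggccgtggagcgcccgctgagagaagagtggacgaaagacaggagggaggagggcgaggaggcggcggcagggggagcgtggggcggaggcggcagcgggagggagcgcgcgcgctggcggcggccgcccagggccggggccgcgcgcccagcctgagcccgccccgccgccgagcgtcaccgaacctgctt

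The E-box of ABCA1 lies 147 to 142 bases upstream of the start, and 6.35% of 35114 promoters of this length hold one. Its DR4 match lies 69 to 54 bases upstream on the opposite strand with 2 mismatches, and 2.03% of promoters hold such a match. The SRE was found in 0.883% of promoters and in none of the 6 genes. The windows of NR1H3 and VLDLR held none of these motifs either. The windows of MYLIP, VLDLR and LRP8 were rich in G and C, at 73.6%, 78.8% and 77.2%, against 61.6% in ABCA1 and 57.6% in NR1H2. A match is a description of the letters, and no match says nothing of more distant sites.

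Genes that share the LXR pathway were followed by lists. Their counts are to be read against the shares of all genes tested that rose and fell, 12.4% and 11.6% with mepazine in WT, 22.1% and 24.8% with mepazine in R820W, and 10.6% and 8.61% in R820W against WT with vehicle. Of 20 other LXR target genes 10 were tested. With mepazine 6 rose and 1 fell in WT, with a median log2 fold change of 0.348, and 6 rose and 1 fell in R820W, with a median of 0.284. Those that rose included SREBF1, which encodes SREBP-1 (0.72 ± 0.0642 in WT and 0.72 ± 0.0636 in R820W, edgeR adjusted p = 8.59e-08 and 2.05e-08), and the desaturase SCD (1.24 ± 0.0434 and 1.09 ± 0.0433, adjusted p = 3.06e-17 and 3.39e-16). Fatty acid synthase FASN rose by 0.64 ± 0.0564 in WT and 0.31 ± 0.0563 in R820W, and the elongase ELOVL5 by 0.45 ± 0.0499 and 0.26 ± 0.0521. SREBF1, SCD, FASN and ELOVL5 are known targets of SREBP as well as of LXR. SMPDL3A, an LXR target that encodes a phosphodiesterase, did not pass the test in either genotype (0.25 ± 0.26 and 0.44 ± 0.232, adjusted p = 0.543 and 0.123), except in R820W without R820W mepazine a (adjusted p = 0.0457). LPCAT3, which remodels phospholipids, passed it in R820W (0.13 ± 0.0442, adjusted p = 0.0174) and not in WT (0.12 ± 0.0442, adjusted p = 0.0582); the call in R820W was lost without R820W vehicle b or c or R820W mepazine b or c, with adjusted p up to 0.0911. APOE, the LXR target that encodes apolipoprotein E, was too low to test at 1 to 14 counts per library.

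In R820W against WT with vehicle 4 of the 10 LXR target genes fell and 0 rose. ELOVL5 had a value of -0.51 ± 0.0519 (edgeR adjusted p = 2.12e-08) and SCD of -0.24 ± 0.043 (adjusted p = 0.000126). SREBF1 did not pass the test (0.11 ± 0.0649, adjusted p = 0.286). In KO against WT 1 of 10, SCD, fell.

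**Figure D4:**
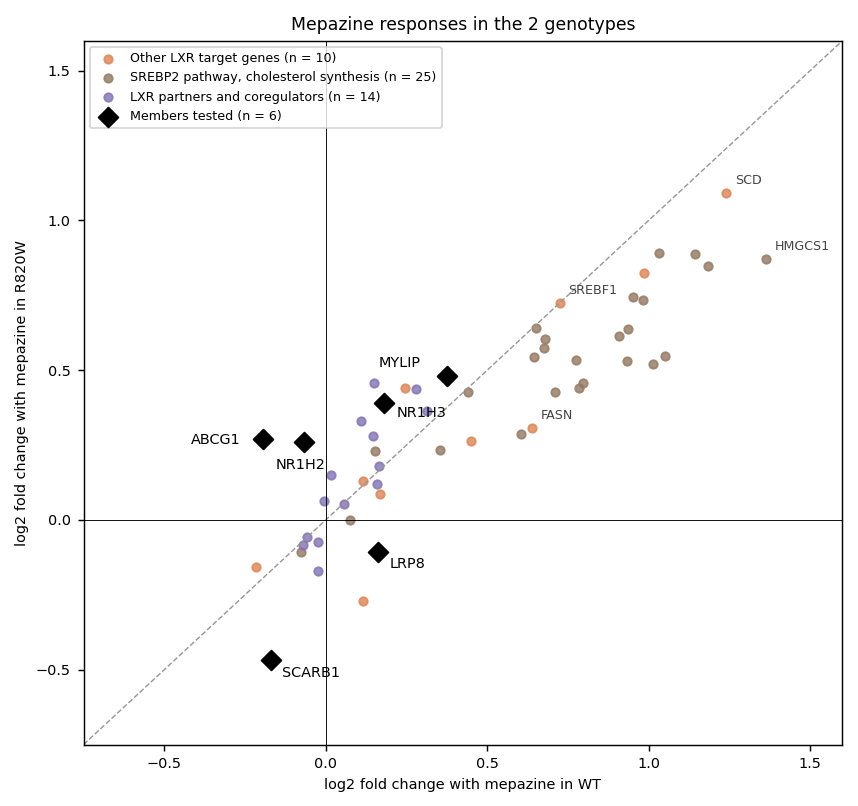
Log2 fold change with mepazine in WT (x axis) against that in R820W (y axis) for the 6 genes tested (black diamonds) and for 3 pathway lists (coloured points); the dashed line marks equal responses. Cholesterol synthesis genes lie to the upper right and mostly under the line, MYLIP lies close to it, and SCARB1 is lowest on the y axis.

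Sterol synthesis genes rose with mepazine in both genotypes. Of 25 genes of the SREBP2 pathway, all tested, 22 rose and 0 fell with mepazine in WT (median 0.783), and 23 rose and 0 fell in R820W (median 0.544). HMGCS1, which makes the precursor of mevalonate, rose by 1.36 ± 0.053 in WT and 0.87 ± 0.0527 in R820W (edgeR adjusted p = 5.71e-16 and 1.91e-12). SREBF2, the gene of SREBP2 itself, rose by 0.65 ± 0.0474 and 0.64 ± 0.047. The responses of 11 of the 25 were lower in R820W than in WT and of 0 higher (3.07% and 0.788% of all genes), HMGCS1 among them by a difference of -0.49 ± 0.0741 (adjusted p = 0.000837); the difference did not pass the test for SREBF2 (-0.01 ± 0.0666, adjusted p = 0.964). In R820W against WT with vehicle 2 rose and 2 fell, and in KO against WT 0 of 25 changed.

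Partners and coregulators of LXR rose in part. Of 14 tested, 3 rose and 0 fell with mepazine in WT (median 0.083) and 7 rose and 1 fell in R820W (median 0.135). RXRA, the retinoid X receptor that pairs with LXR, rose in R820W by 0.28 ± 0.0546 (edgeR adjusted p = 0.000174), and in WT its value was 0.15 ± 0.0552 (adjusted p = 0.0585), which passed without WT mepazine b (adjusted p = 0.0168). The coactivator gene NCOA3 rose by 0.28 ± 0.0489 in WT and 0.44 ± 0.0485 in R820W. Under mepazine 10 of the 14 were higher in R820W than in WT and 0 lower (19.4% and 25.4% of all genes). In R820W against WT with vehicle 5 rose and 0 fell, among them NCOA2 (0.70 ± 0.0712, adjusted p = 2.07e-08) and NRIP1 (0.40 ± 0.051, adjusted p = 9.39e-07), a corepressor gene of nuclear receptors.

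Of 10 enzymes that make or convert oxysterols 6 were tested. With mepazine 4 rose and 0 fell in WT, and 4 rose and 1 fell in R820W. HSD3B7, an enzyme of bile acid synthesis that acts on oxysterols, rose by 0.70 ± 0.172 in WT and 0.63 ± 0.152 in R820W (edgeR adjusted p = 0.00378 and 0.00133). SULT2B1, which sulphates cholesterol and oxysterols in keratinocytes, was higher in R820W than in WT with vehicle by 1.26 ± 0.289 (adjusted p = 0.00214) at 1.31 ± 0.304 against 0.549 ± 0.0759 CPM, and its value with mepazine in R820W was -1.0 ± 0.275 (adjusted p = 0.00385). CH25H, which makes 25-hydroxycholesterol, was too low to test at 0 to 9 counts per library.

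Of 11 ABC transporters tested besides ABCA1 and ABCG1, 4 rose and 0 fell with mepazine in WT and 6 rose and 0 fell in R820W. ABCA12, the keratinocyte lipid transporter mutated in harlequin ichthyosis, rose by 0.57 ± 0.091 in WT and 0.76 ± 0.0786 in R820W (edgeR adjusted p = 3.76e-05 and 1.38e-08), and was higher in R820W than in WT with vehicle by 0.75 ± 0.0896 (adjusted p = 3.85e-07). Of 17 genes of the lipoprotein receptor family and reelin pathway tested besides LRP8, 5 rose and 2 fell with mepazine in WT, and 8 rose and 4 fell in R820W, where 46.8% of all genes changed. With 1 library left out, the number of these that rose in WT ran from 1 to 5. SORL1, a sorting receptor of this family, rose by 0.35 ± 0.0413 and 0.55 ± 0.0405 (adjusted p = 4.46e-07 and 3.38e-11). PDZK1, the adaptor that stabilises SCARB1 protein in liver, rose with mepazine by 0.35 ± 0.111 in WT (adjusted p = 0.0225) and by 0.96 ± 0.0917 in R820W (adjusted p = 3.28e-09). The call in WT was lost without WT vehicle a or b or WT mepazine a or c, with adjusted p up to 0.12, and with DESeq2. Of 17 genes of cholesterol storage and intracellular transport, 6 rose and 1 fell in WT and 9 rose and 1 fell in R820W, where 46.8% of all genes changed; NPC2, which hands cholesterol on in the lysosome, rose by 0.57 ± 0.0429 and 0.65 ± 0.0431.

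The genes whose log2 CPM ran closest to each of the 6 over the 15 libraries were found by Pearson's r. This is a description across libraries that fall into 5 groups, so that r follows the differences between groups. For MYLIP they were SPPL3 (r = 0.981), DCAF7 (0.968) and TPP1 (0.96), and for SCARB1 they included TIMM13 (0.976) and DDX39B (0.973). For LRP8 they were FLVCR1 (0.911), TMEM251 (0.9) and NCR3LG1 (0.888), for NR1H2 MMP14 (0.898), FAT3 (0.881) and CTSB (0.879), and for NR1H3 KCTD2 (0.904), BTN2A1 (0.903) and CALM3 (0.879). ABCG1, with the fewest counts of the 6, had the weakest likeness, with BC039675 at 0.797. Among the 6 themselves MYLIP and SCARB1 ran opposite to each other (r = -0.795), as did NR1H2 and LRP8 (r = -0.717), and NR1H2 and NR1H3 ran together (r = 0.631).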

How the data were processed

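The authors deposited 1 table of raw read counts per gene symbol, with 1 column per library and no normalization. Per the submitters' processing notes the study used FastQC, MACS2, DESeq2 and the hg19 build; which aligner, counter, annotation and strand setting were used is not given in the sources used here. Reads of overlapping or antisense genes may therefore be shared. The NEBNext Ultra II Directional kit was used on total RNA, per the labels' protocols. Groups and letters came from the sample titles. Nothing says which cultures shared a letter, so p-values measure the spread between libraries, some of which may be technical. No replicate pair agreed within sampling noise (chi-square per gene of 3.31 to 14.8), and all 15 libraries were kept. The pairs of R820W with mepazine had values of 6.9 to 14.8, and those of the other groups 3.31 to 7.81.

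The counts, at 20630099 to 26974363 per library, were filtered with filterByExpr (minimum count 10), scaled by TMM and fitted with edgeR 4.0.16 (R 4.3.3) in 1 robust quasi-likelihood model with group as its term, and 7 contrasts were tested two-sided. Alternatives used limma 3.58.1, DESeq2 1.42.0, other filters, scalings and subsets of libraries, and a block for the letter. Exon and transcript lengths came from GENCODE on GRCh38 and served only for levels per kilobase; promoters came from RefSeq. The 8 genes and the pathway lists were chosen with earlier results of these data known. Pathway genes named are SREBF1, SREBF2, RXRA, APOE, SMPDL3A, LPCAT3 and CH25H, and for each list the 3 genes with the smallest adjusted p under 0.05 in each mepazine comparison and in R820W against WT, not all of which are printed, and some are not reported here; CARD14 is the targeted gene.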

Additional observations from a re-analysis of the deposited data

Results flagged for a closer look

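The mepazine response differed between R820W and WT cells, by edgeR's test of the difference itself, for 3 of the 6 tested genes, where 3.85% of all genes tested differed, and for 8 of the pathway genes reported here. The 6 genes were chosen with earlier results of these data known, and most pathway genes were named for a small adjusted p in these data. Neither count is therefore independent support, and the count of 8 is not to be read against the 3.85%. The log2 differences, R820W minus WT, were 0.33 for NR1H2, -0.30 for SCARB1 and -0.27 for LRP8, and the fits without 1 library that lost these calls are given above. The call of SCARB1 was also lost with limma-voom and with library totals in place of TMM scaling.

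Of the pathway genes, 4 sterol and fatty acid synthesis or regulator genes responded less in R820W: HMGCS1 by -0.49, INSIG1 by -0.33, FASN by -0.33 and FDFT1 by -0.30. The lysosomal cholesteryl ester hydrolase gene LIPA differed by -0.29. Of the lipoprotein receptor family LRP12 differed by -0.38 and SORL1 by 0.20, and PDZK1, the adaptor of SCARB1 protein, by 0.62. Over the 12 fits that each left out 1 library, the call was lost in 11 for SORL1, in 6 for FASN, in 5 for LRP12, in 3 for PDZK1, and in 1 for INSIG1 (without WT vehicle a) and for LIPA (without R820W vehicle b). The directions did not change in these fits, and HMGCS1 and FDFT1 passed in each. The summed fibroblast and endothelial markers were highest in R820W with mepazine (23.4 to 33.2 and 22.2 to 35.9 CPM). LUM and DCN made up most of the former sum and CDH5 most of the latter. The part of these markers in the differences was not tested.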

How the results depend on the processing

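Over the 624 values that the alternatives gave for the 6 tested genes, 585 kept their direction and side of the threshold or stayed uncalled, 34 lost a call and 5 gained one. No called value changed sign; 18 uncalled values did, none of them from a log2 fold change above 0.058. MYLIP in both genotypes, NR1H2 and SCARB1 with mepazine in R820W, and the 4 genes called between R820W and WT under mepazine passed in every fit. NR1H3 with mepazine in R820W also lost its call with DESeq2 and with no filter. The number of the 8 genes called was 0 in every fit of the 3 vehicle comparisons, 2 to 3 with mepazine in WT, 3 to 5 in R820W, and for the difference of the responses 0 to 3 with 1 library left out and 2 to 3 otherwise. Over all genes the count for that difference, 577, was 345 with library totals in place of TMM, 894 with no filter and 1401 with the replicate block. With 1 library left out it ran from 137 (without R820W vehicle b) to 1362 (without R820W mepazine b). The count for KO against WT, 56, was 103 with the replicate block and 22 to 51 with 1 library left out. The labels do not say whether libraries with the same letter belong together. Over 30 same-letter pairs of libraries the correlation of deviations was -0.027 to 0.156, above 0.1 for 5 pairs. Of 15 libraries, 9 correlated best with their own letter. Over all genes, the replicate block gave more calls in each of the 7 comparisons. The replicate block changed 1 call among the 6 genes, LRP8 with mepazine in R820W (-0.106, adjusted p = 0.0362). Among named pathway genes 56 values gained and 158 lost a call, and no called value changed sign. In R820W against WT with vehicle the block also called SREBF1, SREBF2 and RXRA (edgeR adjusted p = 0.0423, 0.0402 and 0.0295). The causes were not tested. ABCA1 and VLDLR, at 0 to 7 counts per library, were too low for the main test, and with no filter neither passed in any of the 7 comparisons. The higher VLDLR counts in the KO libraries were therefore not established at this depth.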
